A study of Rattus norvegicus with 3 samples.

Results

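The ribosome's own proteins were followed through 3 cell fractions of Rat1 cells, a rat fibroblast line, with Myc or with the empty vector. Members were taken by entry name: every Swiss-Prot entry whose name before the species suffix begins with RL or RS and a digit, together with RLA0, RLA1, RLA2 and RSP4, whatever the species. Of 1053 entries in the 3 deposited tables, 43 met the rule, and these stand for 33 proteins, 19 of the large and 14 of the small ribosomal subunit. No entry for the stalk proteins RLA1 or RLA2 was met. There were 24 of the entries among 620 in the soluble fraction, 21 among 400 in the chromatin and 16 among 207 in the mitochondrial fraction. By suffix the entries were human or mouse, except 1 Arabidopsis entry in the mitochondrial table, and 0 were rat. No protein had more than 1 member entry within a fraction. Protein names given here were read off the entry names without a reference table.

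Rat1_Myc and Rat1_vector cells had both been kept without serum for 12 h, so the vector cells share that treatment. Vector protein carried the light and Myc protein the heavy isotope-coded affinity tag (ICAT), a reagent that attaches to cysteine, and each peptide therefore gave an abundance ratio of Myc over vector. Soluble and chromatin-enriched fractions were mixed at 2.5 mg of protein per label, and the crude mitochondrial fraction at 250 ug per label. Each fraction was 1 mixture, without a replicate or a swap of the tags, so each ± below is the deposited SD within that mixture, no difference has a replicate check, and tag and cell cannot be told apart. Equal protein masses were mixed, so a ratio compares shares of the fraction's protein, and a change in the cell's total cannot be told apart from a shift between fractions. The promoter that drives Myc, and whether the lines were clones, were not given in the sources used here.

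The cytosolic ribosome joins a small subunit, which reads the messenger RNA, to a large subunit, which forms the peptide bond. Its proteins are made in matched amounts, are imported into the nucleus, and are assembled with ribosomal RNA in the nucleolus before both subunits return to the cytoplasm, where many ribosomes also sit on endoplasmic reticulum membranes. Myc is known for raising ribosome production, and removal of serum for lowering the translation of ribosomal protein messages. Those messages typically begin with a run of pyrimidines at the start of the transcript, the terminal oligopyrimidine tract, and this shared feature was not used to choose the members.

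Of the 33 members, 26 matched a symbol in the RefSeq promoter table of the rat assembly GRCr8. A run of at least 8 pyrimidines (C or T, sense strand) lay within 15 bases on either side of the annotated start in 15 of the 26 (57.7%), against 11.4% of all 33469 promoters in the table. It was present in 10 of 16 large and 5 of 10 small subunit genes. The Myc-binding motif CACGTG, which reads the same on both strands, lay within the 300-base windows of 3 of the 26 (11.5%), against 6.42% of all promoters. A match is a description of the sequence and not a bound site. The start regions of 5 of the 15 genes with the run are printed as examples from RefSeq GRCr8, 5′ to 3′, with the pyrimidine run in capitals. They are Rpl10 (chrX:157205835-157205864, plus strand), Rpl22 (chr5:168117946-168117975, plus), Rplp0 (chr12:46718376-46718405, minus), Rps2 (chr10:14251833-14251862, plus) and Rps21 (chr3:187724023-187724052, plus).
Rpl10: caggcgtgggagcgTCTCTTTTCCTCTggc
Rpl22: gtagtgcgCCCCCCTCCCTTTCTgcctcct
Rplp0: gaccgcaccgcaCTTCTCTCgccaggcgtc
Rps2: CCTCTTCTTTTTCTTCgggaaaacacgtga
Rps21: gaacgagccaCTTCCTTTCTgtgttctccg
The run in Rps2 lies almost wholly before the annotated start, and the lower-case end of its window holds the CACGTG motif. Of the 8 proteins called higher in any fraction 6 had a matched gene, and 4 of these held the run (L17, L22, P0 and S2) while L11 and L12 did not.

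Of 59 quantified ribosomal values, 10 were called higher in Myc cells, from 8 proteins, and 0 were called lower. The shares of all entries are given by fraction below. A protein was called higher when its ratio was at least 1.5 and lower when it was at most 1 over 1.5, in each case only if it lay more than 2 deposited errors (SD over ratio) from 1 on the log scale. Of 23 quantified soluble members 4 were higher and 0 lower, beside 30.6% of all 542 soluble entries higher and 8.12% lower. Of 20 quantified chromatin members 4 were higher and 0 lower, beside 20.3% and 7.42% of 364 entries. Of 16 mitochondrial members 2 were higher and 0 lower, beside 10.9% and 7.46% of 201 entries. The share of members called higher was thus below that of all entries in the soluble fraction, and close to it in the other fractions. By the 1.5-fold limit alone, without the error condition, 6 soluble members were higher and 1 lower, beside 41.0% and 10.7% of all entries. In chromatin 6 were higher and 0 lower, beside 28.6% and 9.62%, and in the mitochondrial fraction 2 were higher and 1 lower, beside 21.4% and 11.4%.

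The median member ratio was 1.15 for soluble, 1.40 for chromatin and 1.26 for mitochondrial entries, where the medians of all entries were 1.34, 1.24 and 1.15. Members therefore lay below the run of soluble proteins and slightly above it in the other fractions. Of the soluble members 15 of 23 lay below the fraction's median, as 271 of all 542 entries did. In chromatin 8 of 20 lay below it, beside 182 of 364, and in the mitochondrial fraction 5 of 16, beside 49.8% of all entries. In all, 50 of 59 quantified values were above 1. By fraction these were 17 of 23 soluble, 18 of 20 chromatin and 15 of 16 mitochondrial values, where 385 of 542, 250 of 364 and 131 of 201 of all entries were above 1. No source used here says if the ratios had been centred, so a value above 1 may hold a shift of the whole table.

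**Figure D1:**
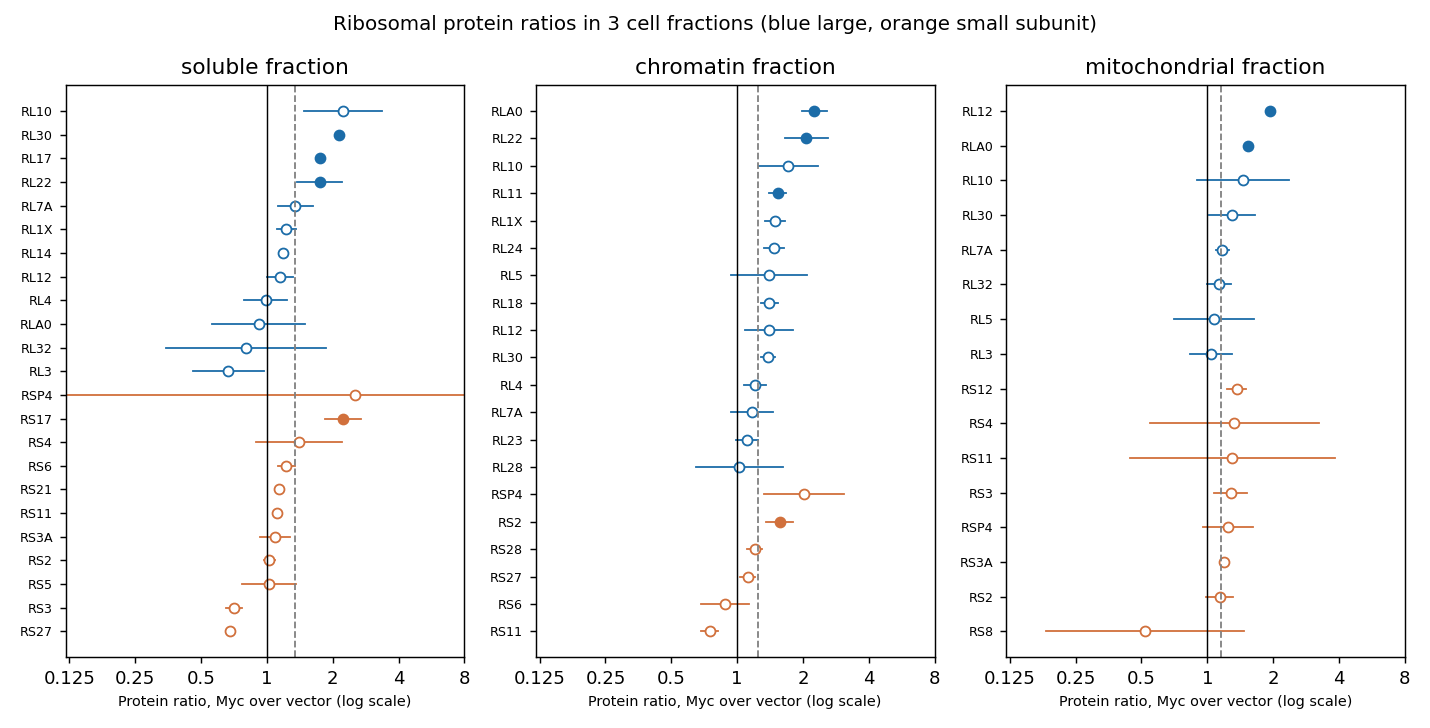
Protein ratio of Myc over vector (log axis) for each quantified ribosomal entry in the soluble, chromatin and mitochondrial fractions, in blue for the large and orange for the small subunit. Bars span 1 deposited error on the log scale (clipped at the axis), filled points are higher by the rule, the solid line is 1 and the dashed line the median of all entries. The 10 filled points lie right of the dashed line, and the open points lie on both sides of it.

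In the soluble fraction the large subunit ran from 0.664 to 2.22, and 3 of its 12 quantified proteins were higher. L30, at 2.13 ± 0.051 (RL30_HUMAN), rested on 1 measurement, and the 2 lines of its other peptide were coded as not quantified. L17, which lies near the tunnel exit, stood at 1.75 ± 0.085 (RL17_MOUSE), also on 1 measurement. L22, an RNA-binding protein that can be spared for general translation in mice, stood at 1.74 ± 0.406 (RL22_HUMAN) with 3 measurements between 1.24 and 1.93. These higher values came from thin data, because none of the 3 proteins had more than 3 measurements.

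L10, which joins the large subunit late in its assembly, had the highest soluble ratio of that subunit at 2.22 ± 0.909 (RL10_HUMAN) but lay within 2 errors of 1. L7a stood at 1.35 ± 0.248 (RL7A_HUMAN) and L18a at 1.23 ± 0.127 (RL1X_HUMAN). L12, at the base of the ribosomal stalk, stood at 1.15 ± 0.153 (RL12_HUMAN). L14 stood at 1.18 ± 0.033 (RL14_HUMAN) with 9 measurements from 0.772 to 1.44. These 4 proteins lay within 1.5-fold of 1, with L7a the only one at about the median of all soluble entries.

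L4, which lines the exit tunnel, stood at 0.985 ± 0.228 (RL4_MOUSE, deposited peptide number 6). P0, the core of the stalk that recruits elongation factors, stood at 0.918 ± 0.449 (RLA0_HUMAN). L32 stood at 0.800 ± 0.673 (RL32_HUMAN), and L3, a core protein close to the catalytic centre, was the lowest of the subunit at 0.664 ± 0.248 (RL3_HUMAN). None of these 4 was lower by the rule. The 3 measurements of P0 ran from 0.533 over 1.83 to 3.86, so its protein ratio does not settle a direction. L23 (RL23_HUMAN) was present by 1 line and coded as not quantified.

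Of the small subunit, several soluble proteins with many measurements lay near 1. S2, at the entry of the messenger channel, stood at 1.02 ± 0.060 (RS2_HUMAN) with 12 measurements from 0.713 to 1.23. S21 stood at 1.14 ± 0.045 (RS21_MOUSE), also with 12 measurements, from 0.806 to 1.301. S11 stood at 1.11 ± 0.045 (RS11_HUMAN, deposited peptide number 5). Its 24 measurements had a median of 1.06 and ran from 0.811 to 6.49. All 3 were below the median of the fraction, 1.34, and within 1.5-fold of 1.

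S3a stood at 1.09 ± 0.167 (RS3A_HUMAN, 3 peptides) and S5 at 1.02 ± 0.294 (RS5_HUMAN, 3 peptides). S6, the main target of the S6 kinases, stood at 1.23 ± 0.111 (RS6_HUMAN) and S4 at 1.40 ± 0.639 (RS4_HUMAN). S3, which also lines the messenger entry, stood at 0.708 ± 0.060 (RS3_HUMAN) with 16 measurements whose median was 0.712 and whose range was 0.317 to 1.92. The lowest value was S27 at 0.681 ± 0.010 (RS27_HUMAN), on 1 line with a peptide probability of only 0.705. S3 and S27 missed the 1.5-fold limit as deposited and were lower by the rule relative to the median of the fraction, as 17.0% of all soluble entries were.

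S17 was the only small subunit protein higher in the soluble fraction, at 2.23 ± 0.419 (RS17_HUMAN), with 6 measurements of 1 peptide from 1.49 to 6.16. SA, the laminin receptor protein that also belongs to the small subunit, had the highest ratio, 2.54, but a deposited SD of 9.26 (RSP4_HUMAN). Its 18 measurements ran from 0.109 to 20.1 with a median of 3.11. The 27-residue peptide gave 16 of these, from 0.986 to 20.1 with a median of 3.51, and the 11-residue peptide gave 0.109 and 2.42. With the deposited SD, the protein ratio of SA is undetermined in this fraction despite 26 lines. After division by the fraction median 2 soluble members were higher (L30 and S17), beside 12.9% of all entries.

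**Figure D2:**
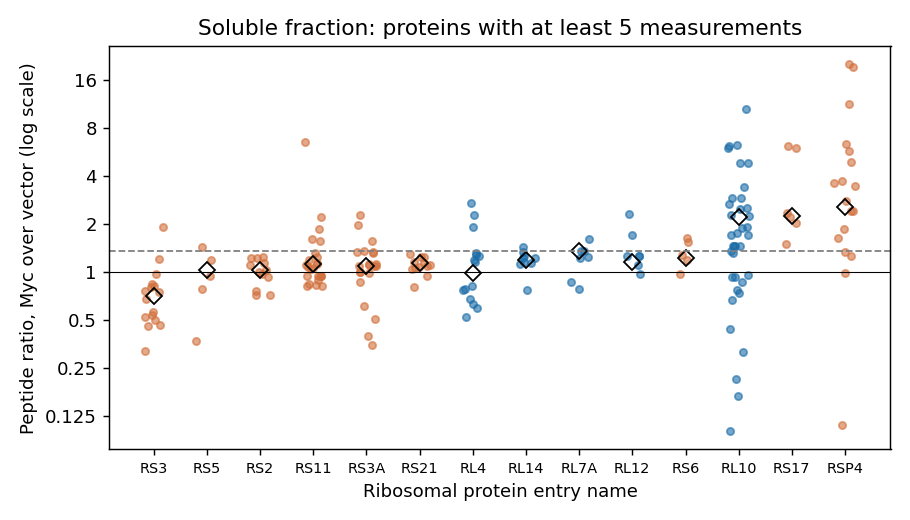
Distinct peptide measurements (ratio of Myc over vector, log axis) in the soluble fraction for the 14 ribosomal entries with at least 5 of them, in blue for the large and orange for the small subunit, ordered by their median. Open diamonds are the deposited protein ratios, the solid line is 1 and the dashed line the median of all soluble entries, 1.34. RS2 and RS21 are narrow and near 1, while RL10 and RSP4 spread over more than 10-fold.

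In the chromatin-enriched fraction all 14 quantified large subunit proteins had ratios above 1, from 1.02 to 2.26, as 250 of all 364 entries did, and 3 were higher by the rule. P0 was the highest at 2.26 ± 0.305 (RLA0_HUMAN), with its 2 measurements at 1.58 and 2.27. L22 stood at 2.07 ± 0.474 (RL22_HUMAN), but 7 of its 8 lines were coded and 1 measurement remained. L11, which with L5 carries the small 5S ribosomal RNA into the large subunit, stood at 1.53 ± 0.141 (RL11_MOUSE) with 4 measurements from 1.34 to 1.94. After division by the fraction median P0 and L22 were still higher, as 9.34% of all chromatin entries were, and L11 was not.

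The other large subunit proteins ran from 1.02 to 1.72, beside quartiles of 0.917 and 1.58 for all chromatin entries. L10 stood at 1.72 ± 0.536 (RL10_HUMAN), L18a at 1.49 ± 0.151 (RL1X_HUMAN, 6 peptides) and L24, which forms a bridge between the subunits, at 1.47 ± 0.157 (RL24_HUMAN, 3 peptides). L5 stood at 1.40 ± 0.564 (RL5_HUMAN), L12 at 1.40 ± 0.357 (RL12_HUMAN), L18 at 1.40 ± 0.125 (RL18_MOUSE) and L30 at 1.38 ± 0.105 (RL30_HUMAN, 13 measurements). L4 stood at 1.21 ± 0.138 (RL4_MOUSE), L7a at 1.17 ± 0.259 (RL7A_HUMAN), L23 at 1.11 ± 0.133 (RL23_HUMAN) and L28 at 1.02 ± 0.467 (RL28_HUMAN). L10 passed the 1.5-fold limit within 2 errors of 1, and the other 10 lay below 1.5. The entry RL44_HUMAN was present by 1 coded line.

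Of 6 small subunit proteins in chromatin, S2 was higher at 1.56 ± 0.225 (RS2_HUMAN), with 2 measurements of 1.46 and 1.80, though not relative to the median. SA stood at 2.03 ± 0.860 (RSP4_HUMAN). S28 stood at 1.21 ± 0.096 (RS28_HUMAN) and S27 at 1.12 ± 0.086 (RS27_HUMAN, probability 0.828). S6 stood at 0.879 ± 0.225 (RS6_HUMAN) and S11 at 0.750 ± 0.067 (RS11_HUMAN), the only chromatin members below 1. Relative to the median of the fraction S11 was lower, as 13.2% of all entries were, but its 3 measurements were 0.747, 0.783 and 2.28, the last with a question mark in the deposited table.

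In the crude mitochondrial fraction 15 of 16 members were above 1, as 131 of all 201 entries were, and both that were higher belong to the stalk. L12 stood at 1.95 ± 0.017 (RL12_MOUSE) and P0 at 1.53 ± 0.012 (RLA0_MOUSE). Their deposited errors, 0.874% and 0.785% of the ratio, were far smaller than the spread of their measurements, which ran from 1.49 to 2.07 over 3 for L12 and from 1.29 to 3.13 over 5 for P0. With the median of the peptide ratios and their spread in place of the deposited protein ratio and error, 1 of 16 was higher. After division by the fraction median L12 alone was higher, beside 6.97% of all entries.

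The remaining large subunit proteins of this fraction were L10 at 1.46 ± 0.703 (RL10_MOUSE), L30 at 1.298 ± 0.316 (RL30_HUMAN), L7a at 1.17 ± 0.081 (RL7A_MOUSE), L32 at 1.13 ± 0.142 (RL32_HUMAN) and L3 at 1.04 ± 0.229 (RL3_MOUSE). The Arabidopsis entry for L5 (RL5_ARATH, probability 0.874) stood at 1.08 ± 0.452. Of the small subunit, S12 stood at 1.36 ± 0.133 (RS12_MOUSE), S4 at 1.33 ± 1.18 (RS4_HUMAN), S11 at 1.304 ± 1.41 (RS11_HUMAN) and S3 at 1.28 ± 0.220 (RS3_MOUSE). SA stood at 1.24 ± 0.324 (RSP4_MOUSE), S3a at 1.19 ± 0.054 (RS3A_MOUSE) and S2 at 1.14 ± 0.161 (RS2_MOUSE). This value of SA came from an 11-residue peptide alone. An entry of another database that holds the 27-residue peptide of SA stood at 1.90 ± 1.02 in this fraction. S8 was the lowest at 0.518 with an SD of 0.540 (RS8_HUMAN, 1 line). None of these passed the rule.

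Large and small subunit proteins were then set side by side. In chromatin the large subunit had a median ratio of 1.40 over 14 proteins and the small subunit 1.16 over 6, a difference of 0.27 on the log2 scale. In the soluble fraction the medians were 1.203 over 12 and 1.11 over 11, a log2 difference of 0.11. In the mitochondrial fraction they were 1.23 and 1.26 over 8 each, a log2 difference of -0.03. The ranges of the subunits overlapped in every fraction. The sign of the mitochondrial difference turned under other settings, to 0.20 with at least 2 peptides, to 0.04 at a probability of at least 0.9 and to 0.06 at the peptide level. In chromatin 10 of 14 large but 2 of 6 small subunit proteins lay above the median of all entries. Proteins are not replicates and no test across samples was possible, so a difference between the subunits was not shown in any fraction.

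**Figure D3:**
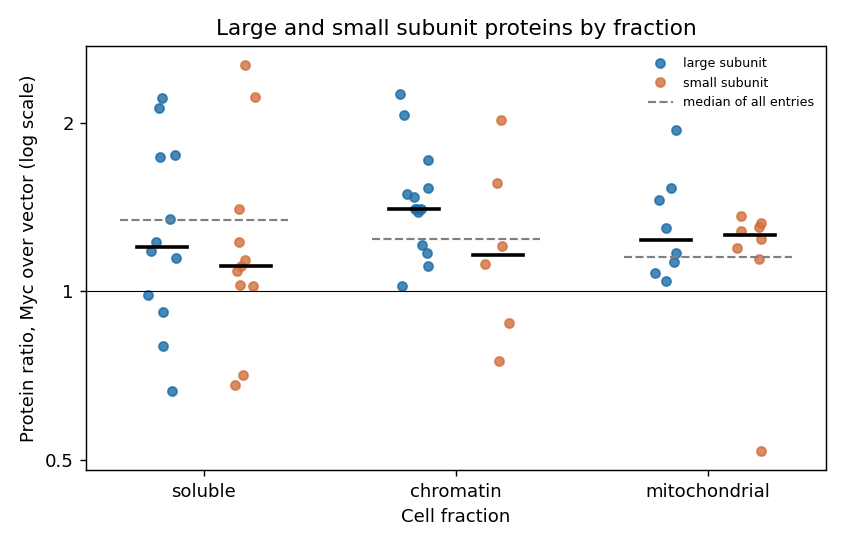
Protein ratio of Myc over vector (log axis) of each quantified ribosomal protein, by fraction and subunit, with a black bar at the median of each set and a dashed line at the median of all entries of the fraction. The sets overlap in every fraction, and the largest gap between subunit medians is in chromatin, 1.40 against 1.16.

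Between fractions, 8 proteins could be followed through all 3 and 11 through a pair, and 13 were quantified in 1 fraction. Ratios of a protein were taken to differ when they were 1.5-fold or more apart and the gap also exceeded 2 combined errors. Between chromatin and soluble 3 of 13 proteins differed, beside 21.1% of all 95 proteins measured in both. Between mitochondrial and soluble 3 of 13 differed, beside 17.3% of 104, and between mitochondrial and chromatin 0 of 9, beside 9.26% of 54. In the pairs with the soluble fraction the members thus differed at a share near that of all proteins.

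L30 was higher in the soluble fraction than in both others, 2.13 ± 0.051 against 1.38 ± 0.105 and 1.298 ± 0.316. Its soluble value was a lone measurement, and in chromatin the same peptide gave 3 measurements with a median of 1.497 and a highest value of 2.71. S2 was higher in chromatin than in the soluble fraction, 1.56 ± 0.225 against 1.02 ± 0.060, and stood at 1.14 ± 0.161 in the mitochondrial fraction. The chromatin and soluble values of S2 came from different peptides, since the protein had no quantified peptide in common there. S27 was higher in chromatin than in the soluble fraction, 1.12 ± 0.086 against 0.681 ± 0.010, each on 1 line.

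L12 was higher in the mitochondrial than in the soluble fraction, 1.95 ± 0.017 against 1.15 ± 0.153, with chromatin between them at 1.40 ± 0.357. Its 15-residue peptide gave 4 soluble measurements from 0.971 to 1.26 and 2 mitochondrial ones of 1.49 and 2.07, which did not overlap. Its 19-residue peptide gave 3 soluble measurements from 1.26 to 2.31 and 1 mitochondrial one of 1.90, which lay inside that range. S3 was higher in the mitochondrial than in the soluble fraction, 1.28 ± 0.220 against 0.708 ± 0.060, from 1 shared peptide. The mitochondrial measurements of S3 ran from 0.833 to 1.39 and lay within the soluble range of 0.317 to 1.92.

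P0 showed the widest gap among members with ratios in all 3 fractions, 0.918 ± 0.449 in the soluble fraction against 2.26 ± 0.305 in chromatin and 1.53 ± 0.012 in the mitochondrial fraction. The chromatin and soluble ratios were 2.46-fold but 1.77 combined errors apart, and they rested on different peptides. Peptide by peptide P0 did not repeat this order. The 12-residue peptide had a median of 1.83 in the soluble and 1.49 in the mitochondrial fraction, and the 22-residue peptide had 1.58 in chromatin and 1.57 in the mitochondrial fraction. S11 lay 1.48-fold apart between soluble and chromatin, just under the limit, at 4.02 combined errors. L7a had the smallest gap of the 8, at 1.35, 1.17 and 1.17, although its chromatin ratio shared no peptide with the other fractions.

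**Figure D4:**
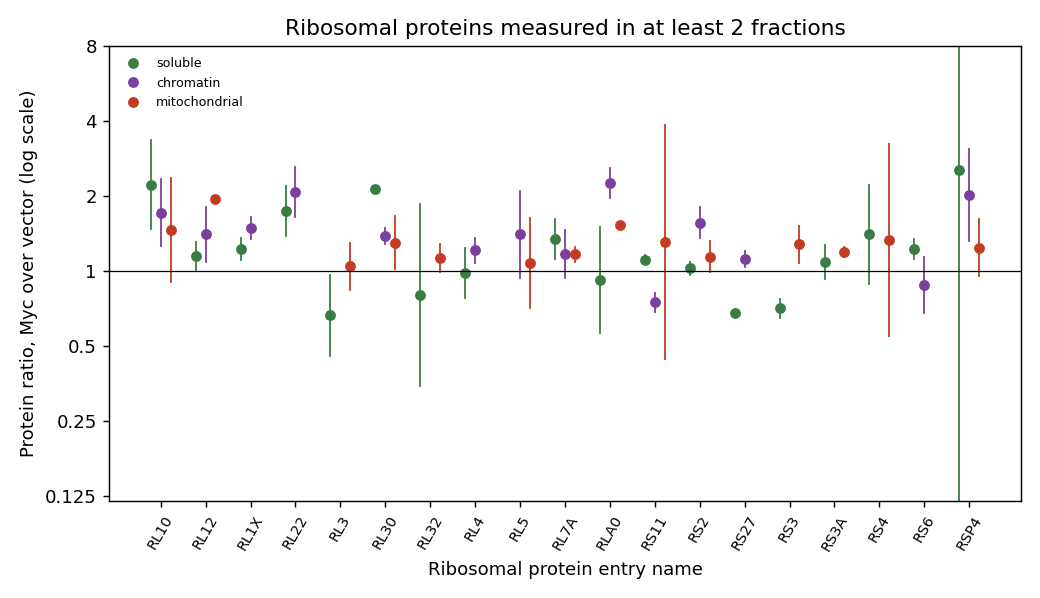
Protein ratio of Myc over vector (log axis) for the 19 ribosomal proteins quantified in at least 2 fractions, coloured by fraction, with bars of 1 deposited error on the log scale (clipped at the axis). RL12 and RS3 stand higher in the mitochondrial than in the soluble fraction, RL30 stands highest in the soluble fraction, and RL7A is nearly level.

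Of the 35 pairs of protein ratios between fractions, 27 shared at least 1 quantified peptide and 8 shared none. Of these 8, 7 compare different cysteines of a protein, and S6 (soluble to chromatin) compares different peptides around the same cysteine. For the 15 peptides of members quantified in both soluble and chromatin fractions, the chromatin median was higher in 9 and lower in 6, with a median log2 difference of 0.11. For 19 peptides in both soluble and mitochondrial fractions, 13 were higher in the mitochondrial fraction, with a median log2 difference of 0.16. For 12 peptides in both chromatin and mitochondrial fractions, 8 were higher in the mitochondrial fraction, with a median log2 difference of 0.14. At the level of protein ratios, members were higher in chromatin than in the soluble fraction in 7 of 13 pairs, where 42 of all 95 proteins were. They were higher in the mitochondrial than in the soluble fraction in 8 of 13, where 33 of all 104 were. Mitochondrial ratios were higher than chromatin ones in 2 of 9, where 20 of all 54 were. For this last pair the protein ratios went the other way from the peptides, with a median log2 difference of -0.24. The peptide counts include 4 mitochondrial entries of other databases that hold a peptide identical to one of a member (L4, L23, S21 and SA). Where both fractions had at least 2 measurements, the ranges were apart for 0 of 7, 1 of 11 and 0 of 4 peptides. The exception was the peptide of L12 described above, with 2 mitochondrial measurements. Neither this count nor the directions by peptide were computed over all peptides, so the peptide counts of members have no background share.

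L10 supplied more data than any other member, 58 soluble, 144 chromatin and 25 mitochondrial lines, and these show how far peptides of 1 protein can part. In chromatin 4 of its cysteines were measured. The cysteine seen in all 3 fractions, carried by peptides of 21 to 29 residues, gave 77 chromatin measurements with a median of 2.00 and quartiles of 1.46 and 2.76. A 9-residue peptide with another cysteine gave 7 measurements from 0.678 to 1.35 with a median of 1.00, and a 10-residue peptide gave 4 from 0.621 to 0.928 with a median of 0.750. All 11 of these lay below the median of the main cysteine, and 59 of its 77 measurements lay above the highest of them. Those 59 all came from its 27- and 29-residue peptides. Its 21-residue peptide gave 1.019 and its 23-residue peptide 0.836 and 0.837, within the range of the 11, so the split does not follow the cysteine alone. The counts include near repeats of a ratio. The remaining cysteine had 1 measurement of 1.76. The deposited protein ratio of 1.72 ± 0.536 lies between the median of the main cysteine and those of the 9- and 10-residue peptides.

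The main cysteine of L10 had medians of 1.70 in the soluble fraction (37 measurements), 2.00 in chromatin (77) and 1.86 in the mitochondrial fraction (18). Measurements spread widely, from 0.100 to 10.5 in the soluble and from 0.161 to 81.6 in the chromatin fraction. In the soluble fraction the values differed by the form of the peptide. Its 27-residue peptide had a median of 4.83 over 10 measurements, from 1.91 to 10.5, without oxidised methionine. With oxidised methionine the same peptide had a median of 0.662 over 9 measurements, from 0.100 to 2.48, and 8 of the 9 lay below every plain one. The 29-residue peptide, which carries a missed cleavage, had medians of 1.70 plain and 0.923 oxidised.

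In chromatin the medians of the forms were close, 1.78 plain and 1.77 oxidised for the 27-residue peptide, and 2.21 and 2.31 for the 29-residue peptide. The lowest values there were oxidised too, since 5 of 19 and 4 of 18 oxidised measurements lay below every plain one, down to 0.275 and 0.161. In the mitochondrial fraction the 27-residue peptide had medians of 2.04 plain and 1.31 oxidised, and the 29-residue peptide went the other way with 1.78 and 3.49. The 9-residue peptide of L10 in chromatin had a plain median of 0.962 and 1 oxidised measurement of 1.21. Among members other than L10, 6 pairs of peptide and fraction had both forms, on 1 to 3 oxidised measurements each. The oxidised form was lower in 4 and higher in 2, with log2 gaps from -0.94 to 0.35. Of the lower ones, L4 in chromatin (-0.02) and S11 in the soluble fraction (-0.07) were nearly level. The gap of the 27-residue peptide in the soluble fraction, -2.87 on the log2 scale, was the largest of all these cases, and the next was 0.97. Its cause was not tested. The direction of that peptide in the soluble fraction depends on which form is read.

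**Figure D5:**
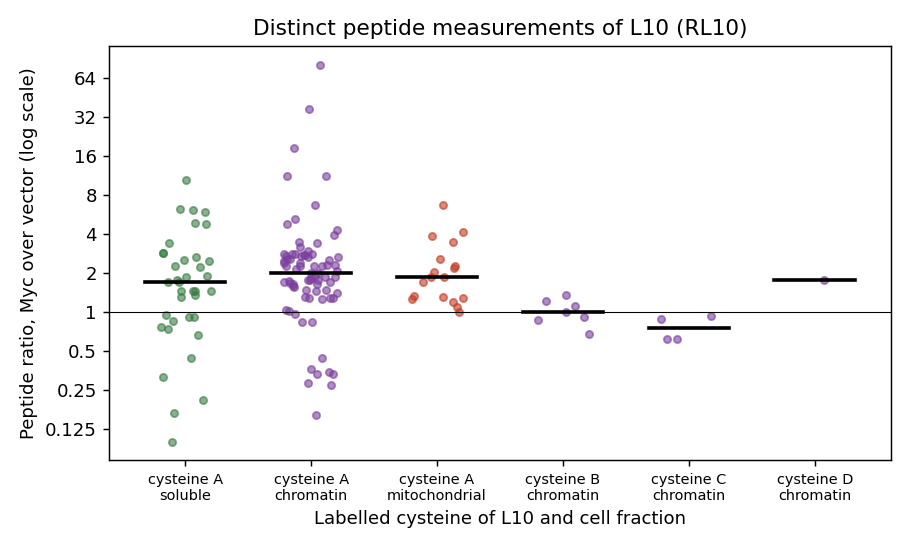
Distinct peptide measurements of L10 (ratio of Myc over vector, log axis) by labelled cysteine and fraction, with black bars at the medians. Cysteine A, the one seen in 3 fractions, has medians of 1.70, 2.00 and 1.86, while cysteines B and C in chromatin have medians of 1.00 and 0.750 and cysteine D has 1 measurement. The 21- and 23-residue peptides of cysteine A in chromatin lie from 0.836 to 1.019.

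Entries that act beside the ribosome were few. Of all quantified entries, 30.6% of soluble, 20.3% of chromatin and 10.9% of mitochondrial ones were higher. The shares lower were 8.12%, 7.42% and 7.46%. Each list below held few entries and was not tested against these shares. Of 4 nucleolar and ribosome assembly entries in chromatin 3 were higher (DD21_MOUSE, FBRL_HUMAN and NOP5_HUMAN) and 0 lower, with a median ratio of 1.72, above every small subunit protein there except SA and above the large subunit median. After division by the fraction median 1 of the 4 was still higher, beside 9.34% of all chromatin entries. Among soluble entries 2 were of this kind and both were coded, and among mitochondrial entries there were 0. Elongation factors had 2 of 5 soluble, 1 of 4 chromatin and 1 of 3 mitochondrial entries higher, with 0 lower. Their medians were 1.32, 1.33 and 1.16, beside 1.34, 1.24 and 1.15 for all entries. Initiation factors had 2 of 7 soluble entries higher and 1 lower, with a median of 1.54. The single chromatin initiation factor was lower (IF2G_HUMAN, 0.617 ± 0.086), and 1 of 3 mitochondrial ones was higher. Ribosome-bound proteins had 0 of 2 soluble entries past the rule, with the scaffold RACK1 at 1.77 ± 0.856 (GBLP_HUMAN), 0 higher and 1 lower of 3 in chromatin, and 0 of 1 in the mitochondrial fraction. The lower one was RRB1_HUMAN at 0.643 ± 0.068, while RRB1_MOUSE, an entry of the same name, stood at 1.68 ± 0.554 in that fraction. L13a, which is ribosomal but outside the naming rule, stood at 1.22 ± 0.170 in chromatin (R13A_HUMAN), and its mouse entry was coded in the mitochondrial table. The mitochondrial ribosomal entry RM19_MOUSE stood at 1.27 ± 0.165 in the soluble fraction and 0.749 ± 0.012 in chromatin.

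The depth behind these values differed between fractions. Members took 312 of 3608 soluble lines (8.65%), 300 of 2386 chromatin lines (12.6%) and 72 of 789 mitochondrial lines (9.13%). By the deposited peptide number, ratios rested on 1 peptide for 13 of 23 soluble, 10 of 20 chromatin and 11 of 16 mitochondrial members. That number can count the plain and oxidised forms of 1 peptide as 2. It was 2 for L22 in the soluble fraction and for S2 in chromatin, each with 1 peptide sequence. Of the 10 values called higher, 3 rested on 1 distinct measurement. The fractions carried the markers of their labels unevenly. Of 7 cytosolic markers 6 were in the soluble and 1 in the chromatin table, and of 11 nuclear markers 8 were in the chromatin and 3 in the soluble table. Of 12 mitochondrial markers 3 were in the mitochondrial, 6 in the chromatin and 4 in the soluble table. Mitochondrial markers took 22 of 789 lines in the mitochondrial, 157 of 2386 in the chromatin and 138 of 3608 in the soluble table. By lines these markers thus showed no enrichment of the crude mitochondrial fraction. Set against 207 mitochondrial, 400 chromatin and 620 soluble entries, the markers found were sparsest in the soluble table. Of 7 fibroblast markers 2 to 4 were met in each table, with vimentin and fibronectin absent from the soluble one.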

How the data were processed

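Members and lists were chosen with earlier results of these data known. Per the labels, spectra were searched against rat, mouse and human proteins, and peptide and protein ratios came from ASAPRatio. The deposited tables give 1 line per peptide identification with a PeptideProphet probability score (lowest 0.502), the peptide ratio, and a text cell holding the protein ratio, its SD and the number of peptides. The authors' codes 0, 9999 and -1 (peaks not detected) were left out, which removed 39 soluble and 50 chromatin member lines and left 2 members without a protein ratio. Tool versions are not given in the sources used here, and some lines carry a question mark that the legend does not explain (13 quantified member lines).

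Protein ratios were used as deposited. Lines of 1 peptide that repeat a ratio and SD exactly were counted as 1 distinct measurement. Near repeats were counted apart, such as 11.335 ± 3.226 and 11.335 ± 3.227 of L10 in chromatin. Counts of measurements, and medians and quartiles over them, can therefore hold 1 quantification more than once. Calls and differences between fractions were made on all entries, joined by name between fractions. With 1 mixture per fraction no p-value could be given. The naming rule asked for called members, those in several fractions or on several peptides, the extremes and the coded ones; all others are named too. Lists of nucleolar, ribosome-bound, elongation, initiation and mitochondrial ribosomal entries were set beside the members. Alternatives changed the fold, error rule, centring, peptide number, probability, entry merging and level of the ratio. Python 3.11.15, numpy 2.4.6, pandas 2.3.3 and matplotlib 3.10.9 were used. Peptide sequences are not printed.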

Additional observations from a re-analysis of the deposited data

Results flagged for a closer look

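Among proteins measured in 2 fractions, 10 pairs lay on opposite sides of 1, with 1 mixture on each side, and none of these differences was tested. These were 5 of 13 between soluble and chromatin, 4 of 13 between soluble and mitochondrial and 1 of 9 between chromatin and mitochondrial fractions, where 36 of 95, 33 of 104 and 19 of 54 of all proteins did so. Only S27 and S3 also differed by 1.5-fold and 2 combined errors.

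From soluble to chromatin, the log2 ratio was higher by 0.30 for L4, 1.297 for P0 and 0.72 for S27, and it changed by -0.57 for S11 and -0.48 for S6. From soluble to mitochondrial, it was higher by 0.65 for L3, 0.50 for L32, 0.74 for P0 and 0.86 for S3. From chromatin to mitochondrial, it was higher by 0.80 for S11. Apart from S27, S3 and the soluble to chromatin change of S11 (4.02 combined errors), these differences lay within 2 combined errors.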

How the results depend on the processing

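Counts of calls were small and moved with the rule. Shares of all entries called were computed only for the main rule, the 1.5-fold limit alone and centring. The other changed counts, and those of differences between fractions under alternatives, have no background share. Across 13 results, 124 values under alternatives were computed, of which 102 stayed within 1.5 times a reported count or within the median deposited error of a member of a reported median. That tolerance is wide: without the error rule the higher members became 6 in the soluble and 6 in the chromatin fraction, and centring took the mitochondrial median log2 ratio from 0.33 to 0.13. The soluble count of higher members, 4, became 2 with a 2-fold limit, 2 after centring and 1 with at least 2 peptides (of 10). The chromatin count, 4, became 8 with a 1.3-fold limit, 2 with a 2-fold limit, 2 after centring and 2 with at least 2 peptides. The peptide number used was the deposited one. By it, L22 in the soluble fraction and S2 in chromatin passed on 2 forms of 1 peptide. The mitochondrial count, 2, became 0 with a 2-fold limit, 1 after centring, and 1 at the peptide level with or without lines that carry a question mark. Lower members, 0 in each fraction, became 2 soluble and 1 chromatin with a 1.3-fold limit, 1 soluble and 1 mitochondrial without the error rule, and 2 soluble and 1 chromatin after centring. Centring moved the median log2 ratio of the members from 0.20 to -0.23 in the soluble and from 0.49 to 0.17 in the chromatin fraction. The log2 difference of large minus small subunit medians ran from 0.08 to 0.23 in the soluble, from 0.22 to 0.41 in the chromatin and from -0.11 to 0.20 in the mitochondrial fraction. Differences between fractions, 6 of 35, became 13 without the error rule, 1 of 14 with at least 2 peptides and 3 of 40 when the same peptide was compared. The question-mark alternative, the one without L10 and the addition of identical peptides of other entries were chosen after the data were seen. No paired analysis was possible because each fraction was a single mixture. Depth limits most values, since 34 of 59 rest on 1 peptide by the deposited number.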
